A study of Mus musculus with 16 samples.

Results

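Interferon-stimulated genes were followed through mouse descending thoracic aorta as a fixed list of 40 symbols, matched to the 52636 gene rows of the count table through the GENCODE annotation of build GRCm38. All 40 symbols matched 1 row each, and all 40 passed the filter on low counts that left 17125 genes for testing. Whole crushed aorta was sequenced from 2 inbred strains, C57BL/6J and 129S6/SvEvTac, each as untreated control and with angiotensin II (AngII), a peptide hormone that raises blood pressure, in 4 libraries per group and 16 in all. The design text describes the AngII groups as AngII-induced hypertension. The labels give no allele beyond the strain background and no AngII dose, duration, age or sex, and nothing in them says whether libraries came from separate animals, so p-values measure the spread between these libraries.

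Interferons are secreted proteins that bind cell-surface receptors and act through JAK kinases and STAT transcription factors. Type I interferons drive a complex that holds STAT2 and IRF9 to the interferon-stimulated response element (ISRE) of target promoters, and interferon gamma acts through gamma-activated sites (GAS). The products include sensors of foreign nucleic acid, antiviral effectors, GTPases that attack vacuoles of intracellular microbes, and the machinery that loads peptides on class I molecules. In the vessel wall, endothelial cells, smooth muscle cells, fibroblasts and resident macrophages can all respond to interferon.

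Promoter windows of 7 of these genes are shown because they carry the response elements of the family in different arrangements and because their transcripts behaved differently in the libraries below. Each is 160 bases of RefSeq sequence on GRCm38.p6, ending just upstream of the annotated start, 5′ to 3′ on the gene's strand. Capitals mark every match on either strand to the ISRE core (GAAA, any 2 bases, GAAA) or to the GAS motif, TTCNNNGAA, which is its own reverse complement, and overlapping matches run together.
Isg15, chr4:156200819-156200978, minus strand: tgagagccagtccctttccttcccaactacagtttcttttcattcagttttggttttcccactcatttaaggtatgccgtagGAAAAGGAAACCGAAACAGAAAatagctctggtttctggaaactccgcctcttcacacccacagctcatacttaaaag
Oas1a, chr5:120907526-120907685, minus strand: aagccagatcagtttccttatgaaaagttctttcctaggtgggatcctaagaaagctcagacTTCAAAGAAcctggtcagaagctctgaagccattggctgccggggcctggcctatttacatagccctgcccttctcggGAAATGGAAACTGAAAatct
Ifit3, chr19:34583369-34583528, plus strand: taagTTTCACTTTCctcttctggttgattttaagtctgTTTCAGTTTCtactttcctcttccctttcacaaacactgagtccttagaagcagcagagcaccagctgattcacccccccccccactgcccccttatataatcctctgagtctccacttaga
Rsad2, chr12:26456453-26456612, minus strand: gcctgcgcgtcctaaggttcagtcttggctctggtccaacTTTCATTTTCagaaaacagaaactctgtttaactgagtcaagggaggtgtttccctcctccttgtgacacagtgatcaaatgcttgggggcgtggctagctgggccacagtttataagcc
Igtp, chr11:58199396-58199555, plus strand: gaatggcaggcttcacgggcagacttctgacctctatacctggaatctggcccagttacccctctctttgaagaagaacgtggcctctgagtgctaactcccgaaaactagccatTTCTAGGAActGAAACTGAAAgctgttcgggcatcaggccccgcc
Gbp7, chr3:142530176-142530335, plus strand: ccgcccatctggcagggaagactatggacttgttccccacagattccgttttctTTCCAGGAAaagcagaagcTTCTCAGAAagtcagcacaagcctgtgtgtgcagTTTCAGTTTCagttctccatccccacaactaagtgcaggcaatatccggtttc
Irf1, chr11:53769854-53770013, plus strand: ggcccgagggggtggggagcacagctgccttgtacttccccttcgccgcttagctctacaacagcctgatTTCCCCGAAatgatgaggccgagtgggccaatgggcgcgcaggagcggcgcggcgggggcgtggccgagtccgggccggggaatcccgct
Isg15 holds 3 overlapping ISRE core matches, and Oas1a holds 2 overlapping ISRE core matches and a separate GAS match. Ifit3 has 2 ISRE core matches on the opposite strand and Rsad2 has 1. Igtp and Gbp7 hold both kinds of motif, and Irf1 holds a GAS match only.

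Of the 40 genes, 30 had a promoter in the RefSeq table, and the 250 bases before the start were searched. The ISRE core was found in 15 of these 30 genes (50%), against 3.463% of the 27025 genes in the table. The longer ISRE, which is the core followed directly by CT, was found in 9 of 30 (30%), against 0.2553% of all genes. The GAS motif was found in 8 of 30 (26.67%), against 8.13% of all genes, and 5 genes, Bst2, Gbp7, Igtp, Irgm2 and Oas1a, held both the ISRE core and the GAS motif. These matches describe letters in a window and not sites of binding.

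Depth ran from 42116120 to 61381134 counts in 15 libraries and reached 121573945 in 129S6/SvEvTac AngII replicate 5. Levels are given as CPM, the counts of a gene per 1000000 counts of its library, on totals scaled by the trimmed mean of M values (TMM). The smooth muscle marker Myh11, which encodes a myosin heavy chain of the contractile wall, was high in every library, at 1727 CPM or more, as the label of aorta implies. All 8 smooth muscle markers fell with AngII in C57BL/6J, and the difference from the AngII effect in 129S6/SvEvTac passed for all 8 (edgeR). All 10 cell cycle markers rose with AngII in both strains, with a median log2 fold change of 4.93 in C57BL/6J and 2.95 in 129S6/SvEvTac.

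AngII raised interferon-stimulated genes in C57BL/6J. In a model fitted over all 16 libraries (edgeR quasi-likelihood test, Benjamini-Hochberg adjusted p below 0.05 over the 17125 genes), 27 of the 40 were higher with AngII, 1 was lower and 12 did not pass. Among all tested genes 38.9% were called, 21.8% as higher. The median log2 fold change of the 40 was 0.98, against 0.01 over all tested genes. In 14 of the 40 all 4 AngII libraries lay above all 4 controls, and in 1 they all lay below, against 19.2% of tested genes that lay fully above and 16% that lay fully below. In whole tissue, a change in the number of cells of a type and a change in RNA per cell cannot be told apart.

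**Figure D1:**
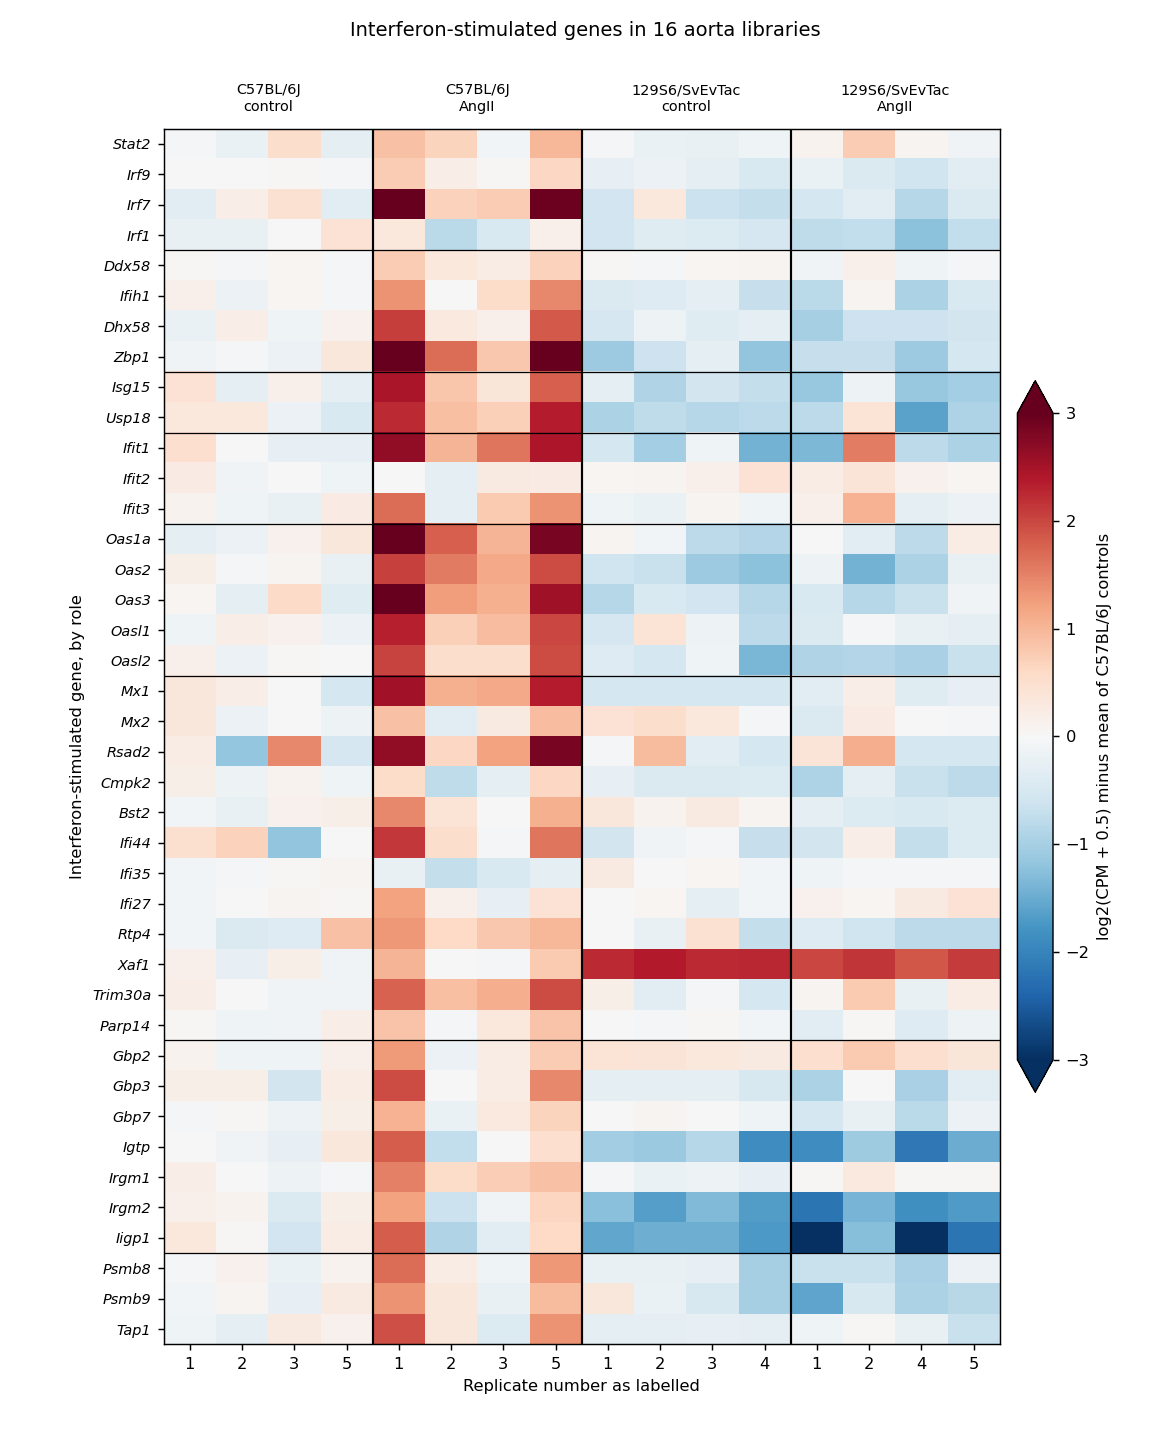
Level of each of the 40 genes (rows, grouped by role) in each of the 16 libraries (columns, by group and labelled replicate), as log2(CPM + 0.5) minus the mean of the C57BL/6J controls; colours saturate at 3 in either direction. The columns of C57BL/6J AngII replicates 1 and 5 are red for most genes, those of replicates 2 and 3 are paler, and Xaf1 is red in every 129S6/SvEvTac library.

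The 4 AngII libraries of C57BL/6J did not share this rise evenly. Against the mean of the controls, the median log2 difference over the 40 genes was 1.72 in replicate 1, 0.36 in replicate 2, 0.29 in replicate 3 and 1.36 in replicate 5, while the median over all tested genes stayed between -0.02 and 0.03. Replicates 1 and 5 each exceeded every control library in 37 of the 40 genes, replicate 2 in 22 and replicate 3 in 21. For all tested genes the same shares were 39.6% for replicate 1, 35.1% for replicate 5, 36.5% for replicate 2 and 35.6% for replicate 3. A log2 difference above 1 was reached by 32 of the 40 genes in replicate 1, by 25 in replicate 5, and by 9 in each of replicates 2 and 3. Replicate 1 held the highest value of the 4 in 32 genes, replicate 5 in 7 and replicate 3 in 1, and replicate 2 in 0, against 26.1%, 19.5%, 30.3% and 24.1% of all tested genes. The pair of highest values came from replicates 1 and 5 in 39 of the 40, the exception being Ifit2, against 24% of all tested genes. The labels give nothing that separates these replicates, and no comparison between them was made.

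Markers of other cell types were ordered over the same 4 libraries. The mean log2 CPM of the 14 adipocyte markers was 7.68, 4.94, 3.69 and 6.54 in C57BL/6J AngII replicates 1, 2, 3 and 5, with all 14 highest in replicates 1 and 5, and their summed level ran from 236 to 538 CPM in controls and from 340 to 5179 CPM with AngII. Adipoq, the fat hormone adiponectin, stood at 312, 55, 10.6 and 214 CPM in those libraries and at 4.12 to 18.96 CPM in controls. The 12 macrophage markers gave 6.84, 6.29, 6.06 and 6.88, with 9 of 12 in that order and a summed level of 581 to 718 CPM in controls and 1352 to 2465 CPM with AngII. Adgre1, the macrophage marker F4/80, stood at 83.98, 51.5, 39.5 and 94.1 CPM with AngII and at 12.9 to 14.8 CPM in controls. T and NK cell markers were low, with sums of 1.79 to 4.93 CPM in controls and 2.94 to 12.1 CPM with AngII, and 9 of 12 were in the same order. Of the 6 plasmacytoid dendritic cell markers 3 were in that order. Their mean log2 CPM was -0.10, -1.13, -1.49 and 0.41, also highest in replicates 1 and 5, against -1.87 to -1.24 in controls. Siglech, a defining marker of these interferon-producing cells, was not in that order, at 0.844, 0.671, 1.83 and 1.07 CPM against 0.623 to 2.24 CPM in controls. None of the 8 smooth muscle or 10 cell cycle markers was in that order. Of 8 endothelial and 8 adventitial fibroblast markers 3 each were, and of 6 neutrophil and 6 B and plasma cell markers 1 each. Among all tested genes the share was 24%.

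When the adipocyte score was added to the model as a covariate, 2 of the 40 genes, Irgm1 and Trim30a, were called higher with AngII in C57BL/6J. With the macrophage score 0 were, against 27 without a score at the same adjusted p (edgeR). Without a score, 31 were higher at an unadjusted edgeR p below 0.05. Over all tested genes the calls went from 6664 to 1374 with the macrophage score. With the adipocyte score the number of calls over all tested genes changed less. The macrophage score was above 6.06 in all 4 AngII libraries of C57BL/6J and at most 4.996 in the other 12, so it and that group nearly coincide and cannot be told apart. Leaving out C57BL/6J AngII replicate 1 and 129S6/SvEvTac AngII replicate 5 together, a choice made after seeing the data, left 14 of the 40 higher.

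**Figure D2:**
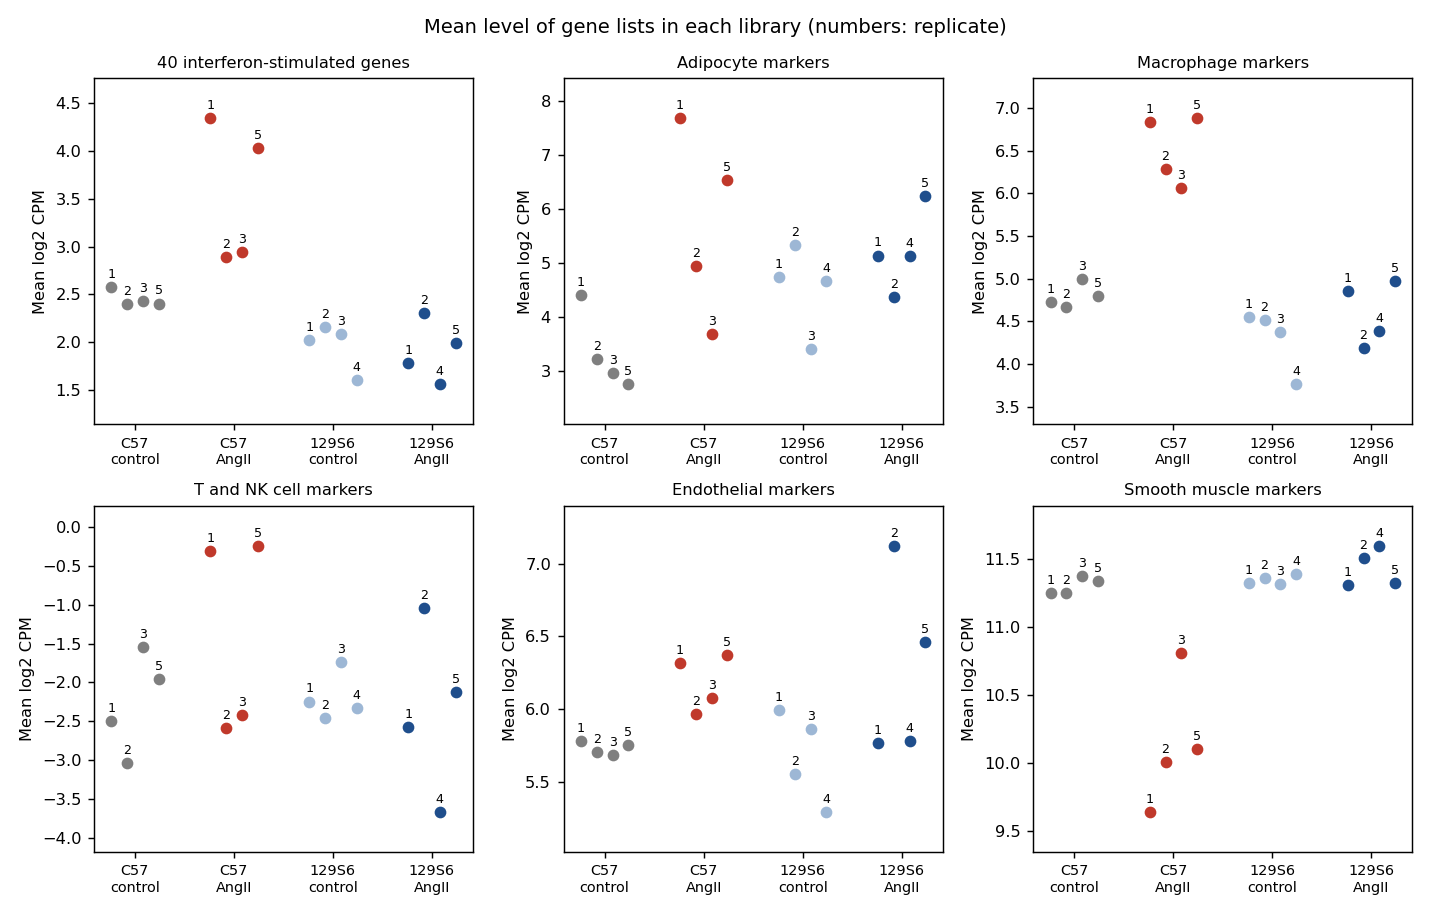
Mean log2 CPM of the 40 interferon-stimulated genes and of 5 marker lists in each library (points, numbered by replicate; C57 is C57BL/6J and 129S6 is 129S6/SvEvTac). C57BL/6J AngII replicates 1 and 5 are the highest libraries for the 40 genes, at 4.34 and 4.03, with replicates 2 and 3 at 2.89 and 2.94 and controls of that strain between 2.40 and 2.58.

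Among the 4 signalling genes and transcription factors, 3 rose with AngII in C57BL/6J. Irf7, the factor that amplifies type I interferon production, stood at 29.7, 4.31, 4.55 and 22.5 CPM in AngII replicates 1, 2, 3 and 5 and at 1.91, 2.93, 3.57 and 1.85 CPM in the controls. Every AngII library lay above every control, with replicates 1 and 5 far above the other two. The log2 fold change was 2.57 ± 0.55 (SE, n = 4 per group; edgeR adjusted p = 0.00187). Stat2 and Irf9, which are parts of the type I complex, rose by 0.65 ± 0.24 and 0.45 ± 0.14 on the log2 scale (edgeR adjusted p = 0.0434 and 0.0209). Neither call held in every omission of a library, the highest adjusted p being 0.135 for Stat2 and 0.0828 for Irf9. Irf1, a factor strongly induced by interferon gamma, stood at 42.6, 19.3, 24.8 and 37.98 CPM against 29.3, 29.2, 34.7 and 45.95 CPM. Its groups overlapped, replicates 2 and 3 lay below every control, and the log2 fold change was -0.16 ± 0.21 (edgeR adjusted p = 0.594).

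All 4 nucleic acid sensors rose. Zbp1, which senses nucleic acids in the Z form, stood at 15.3, 4.24, 2.12 and 11.3 CPM with AngII and at 0.888, 0.927, 0.822 and 1.39 CPM in controls. No AngII library overlapped the controls, and the log2 fold change was 3.03 ± 0.58 (edgeR adjusted p = 0.000736). Ddx58, which encodes the cytosolic RNA sensor RIG-I, showed a smaller and more even change, at 49.6, 35.996, 33.8 and 47.3 CPM against 29.5, 28.3, 30.2 and 28.02 CPM. Its groups did not overlap either, with a log2 fold change of 0.52 ± 0.11 (edgeR adjusted p = 0.00161). Dhx58 (LGP2) rose by 1.56 ± 0.41 and Ifih1 (MDA5) by 0.98 ± 0.29 on the log2 scale, with edgeR adjusted p = 0.00694 and 0.0133. In Dhx58, AngII replicate 3 lay within the control range of 1.46 to 2.09 CPM. The Ifih1 call ended without AngII replicate 5, at an adjusted p of 0.0524.

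Both genes of the ISG15 system rose. Isg15, a ubiquitin-like protein that is conjugated to other proteins, stood at 12.9, 3.87, 2.65 and 7.99 CPM with AngII and at 2.83, 1.49, 2.22 and 1.49 CPM in controls. Replicate 3 lay within the control range, replicates 1 and 5 lay well above it, and the log2 fold change was 1.77 ± 0.47 (edgeR adjusted p = 0.00718). Usp18, the protease that removes ISG15 and restrains the type I receptor, stood at 6.67, 2.36, 2.003 and 7.34 CPM against 1.41, 1.40, 0.842 and 0.603 CPM. The groups did not overlap, the log2 fold change was 2.11 ± 0.76 (edgeR adjusted p = 0.0396), and the call was lost in 6 of 16 omissions, with an adjusted p of up to 0.111.

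The 3 IFIT genes, whose products bind RNA that lacks marks of the host, parted from each other. Ifit1 stood at 17.4, 5.19, 8.10 and 14.7 CPM with AngII and at 3.48, 2.35, 1.86 and 1.87 CPM in controls, without overlap and with a log2 fold change of 2.24 ± 0.69 (edgeR adjusted p = 0.0176). Ifit3 stood at 29.7, 7.19, 15.7 and 23.5 CPM against 9.56, 8.17, 7.61 and 10.6 CPM. Replicate 2 lay below every control, and the log2 fold change was 1.08 ± 0.35 (edgeR adjusted p = 0.0242, up to 0.0920 when 1 library was left out). Ifit2 stood at 29.3, 23.98, 35.3 and 34.8 CPM against 34.8, 27.2, 28.7 and 26.6 CPM, the groups overlapped, and the log2 fold change was 0.07 ± 0.13 (edgeR adjusted p = 0.698). These genes are paralogs that lie side by side on chromosome 19, and the labels do not say how reads shared between paralogs were counted.

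All 5 OAS genes rose, and in all 5 the AngII libraries lay above every control. OAS enzymes make the second messenger that switches on RNase L, and Oasl1 and Oasl2 are their relatives. Oas1a stood at 11.2, 3.94, 2.11 and 8.73 CPM with AngII and at 0.553, 0.647, 0.902 and 1.13 CPM in controls, with a log2 fold change of 3.01 ± 0.59 (edgeR adjusted p = 0.000902). Oas2 was the most even of the family, at 7.64, 5.28, 3.78 and 7.05 CPM against 1.71, 1.38, 1.58 and 1.19 CPM and 2.02 ± 0.43 (edgeR adjusted p = 0.00178). Replicate 1 was the highest in both, as it was in Oas3 and Oasl1. Oasl2, the most abundant of the 5 in CPM, stood at 39.7, 13.7, 13.6 and 37.5 CPM against 10.3, 8.11, 9.52 and 9.37 CPM, with a log2 fold change of 1.48 ± 0.34 (edgeR adjusted p = 0.00275). Oas3 and Oasl1 changed by 3.14 ± 0.90 and 2.57 ± 0.77 (edgeR adjusted p = 0.0121 and 0.0147) from control levels at or below 0.842 CPM.

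Of the 12 Mx, viperin and other effector genes, 6 rose, 1 fell and 5 did not pass. Trim30a, a TRIM-family regulator of inflammatory signalling, stood at 24.5, 13.3, 15.1 and 27.9 CPM with AngII and at 7.99, 6.84, 6.35 and 6.31 CPM in controls. All AngII libraries lay well above the controls, and its log2 fold change of 1.56 ± 0.26 had the smallest adjusted p of the 40 (edgeR, 0.000256). Bst2, or tetherin, which holds budding virus at the cell surface, stood at 45.03, 21.7, 16.3 and 34.7 CPM against 15.3, 14.02, 17.9 and 18.4 CPM. Replicate 3 lay within the control range, and the log2 fold change was 0.84 ± 0.23 (edgeR adjusted p = 0.00852). Mx1, a dynamin-like antiviral GTPase, stood at 3.64, 1.02, 1.10 and 3.21 CPM against 0.419, 0.323, 0.220 and 0 CPM, without overlap. Its log2 fold change was 3.20 ± 0.87 (edgeR adjusted p = 0.0119), from 51 counts over the 4 controls to 483 over the 4 AngII libraries.

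Rsad2, which encodes the antiviral enzyme viperin, rose by 1.96 ± 0.71 on the log2 scale (edgeR adjusted p = 0.0401), at 15.2, 3.33, 5.27 and 17.5 CPM against 2.41, 0.625, 6.29 and 1.27 CPM. Control replicate 3 was above AngII replicates 2 and 3, and the call was lost in 5 of 16 omissions, with an adjusted p of up to 0.118. Rtp4 and the mono-ADP-ribosyltransferase gene Parp14 rose by 1.0 ± 0.38 and 0.55 ± 0.17 (edgeR adjusted p = 0.0469 and 0.0160). Without 1 library their adjusted p reached 0.142 and 0.0631. Ifi35 went the other way, at 17.1, 12.2, 14.6 and 16.5 CPM with AngII against 19.1, 19.7, 20.6 and 21.4 CPM in controls. Every AngII library was below every control, the log2 fold change was -0.42 ± 0.10 (edgeR adjusted p = 0.00489), and the call held in all 16 omissions and with either score as covariate. Ifi35 shares 290 of its 1727 exon bases with an antisense gene, and the labels do not say whether reads were counted by strand. Mx2, Cmpk2, Ifi44, Ifi27 and Xaf1 did not pass, with log2 fold changes of 0.82, 0.14, 1.47, 0.49 and 0.55 and edgeR adjusted p from 0.0530 to 0.701. In all 5 of these, AngII replicates 1 and 5 were again the pair of highest AngII libraries. Cmpk2 lies beside Rsad2 on chromosome 12.

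Among the 7 guanylate-binding and immunity-related GTPases, 3 rose and 4 did not pass. Irgm1, a regulator of autophagy and of the other immunity-related GTPases, stood at 68.8, 35.4, 39.96 and 44.01 CPM with AngII and at 27.6, 23.9, 21.4 and 23.1 CPM in controls. All AngII libraries lay above the controls, with a log2 fold change of 0.97 ± 0.16 (edgeR adjusted p = 0.000267). Gbp2 and Gbp3, guanylate-binding proteins that coat vacuoles of microbes, rose by 0.63 ± 0.22 and 1.14 ± 0.37 (edgeR adjusted p = 0.0359 and 0.0244), and their calls were lost when 1 library was left out, with adjusted p of up to 0.158 and 0.116. Iigp1, an effector GTPase, stood at 80.4, 11.8, 17.8 and 33.8 CPM against 27.8, 22.99, 14.9 and 25.9 CPM. Replicate 1 was far above the controls while replicate 2 lay below all of them, and the log2 fold change was 0.65 ± 0.53 (edgeR adjusted p = 0.355). Igtp and Irgm2 followed the same order of libraries, with replicate 2 below every control in both, and changed by 0.71 ± 0.44 and 0.43 ± 0.31 (edgeR adjusted p = 0.214 and 0.289). They share 162 exon bases on the same strand, so reads there cannot be assigned to either with certainty. Gbp7 changed by 0.53 ± 0.21 (edgeR adjusted p = 0.0567) and shares 637 exon bases with a processed pseudogene.

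In class I antigen processing, 2 of 3 genes rose. Psmb8, a catalytic subunit of the immunoproteasome, stood at 42.8, 15.3, 11.8 and 33.01 CPM with AngII and at 12.6, 14.4, 11.3 and 14.2 CPM in controls, with a log2 fold change of 0.97 ± 0.33 (edgeR adjusted p = 0.0299). Tap1, which carries peptides into the endoplasmic reticulum, stood at 27.4, 8.81, 4.999 and 18.3 CPM against 6.23, 5.56, 8.42 and 7.54 CPM and changed by 1.10 ± 0.37 (edgeR adjusted p = 0.0282). In both genes replicates 1 and 5 lay above every control and replicate 3 did not. Both calls ended when either AngII replicate 1 or 5 or control replicate 1, 2 or 5 was left out, and that of Psmb8 also without control replicate 3. Over all omissions the edgeR adjusted p reached 0.132 and 0.141. Psmb9, the partner subunit, changed by 0.79 ± 0.39 (edgeR adjusted p = 0.127); it shares 212 exon bases with Tap1 on the opposite strand.

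**Figure D3:**
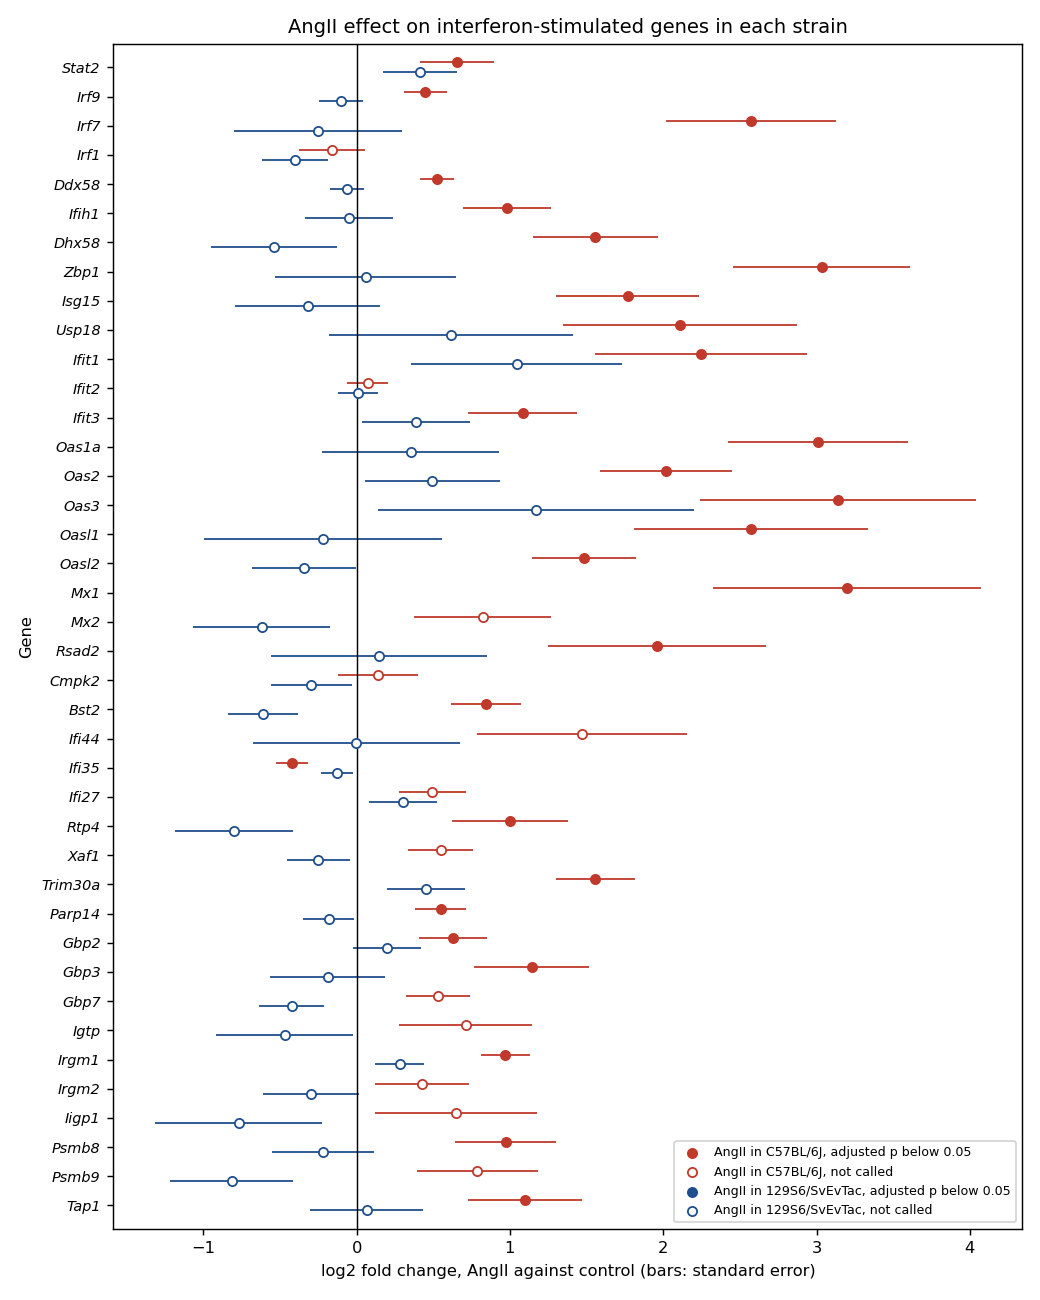
Log2 fold change of AngII against control for each of the 40 genes in C57BL/6J (red) and 129S6/SvEvTac (blue), with standard errors; filled points have an edgeR adjusted p below 0.05. In C57BL/6J 28 points are filled, all but Ifi35 to the right of 0; in 129S6/SvEvTac none of the 39 points drawn is filled, and Mx1 is not drawn because its control libraries held 0 counts.

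Of the 28 calls in C57BL/6J, 16 held in every omission of a single library. They were Irf7, the sensors Ddx58, Dhx58 and Zbp1, Isg15, Ifit1, all 5 OAS genes, Mx1, Bst2, Trim30a, Irgm1 and the lower Ifi35. Omitting AngII replicate 1 left 16 genes higher, omitting AngII replicate 5 left 15 and omitting control replicate 2 left 17, against 27 with all libraries.

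In 129S6/SvEvTac the same treatment gave 1 call among the 40, against 12.2% of all tested genes called, 7.71% as higher and 4.47% as lower. The median log2 fold change was -0.12, and at an unadjusted p below 0.05 edgeR gave 1 gene higher and 1 lower. The called gene was Mx1, with 0 counts in all 4 controls and 31 counts over the 4 AngII libraries, at 0.0676, 0.328, 0.0659 and 0.105 CPM. Mx1 passed the filter on low counts through the C57BL/6J libraries, where it reached 3.64 CPM with AngII. A fit of the 129S6/SvEvTac libraries alone left it untested. Set against 3 counts pooled over the 4 controls, the limit that a count of 0 allows, it was at least 8.04-fold higher (edgeR adjusted p = 0.0346), and the call was lost in 6 of 16 omissions, with an adjusted p of up to 0.0779. Irf7 stood at 1.56, 1.87, 1.14 and 1.72 CPM with AngII in replicates 1, 2, 4 and 5 and at 1.51, 3.23, 1.39 and 1.33 CPM in controls 1, 2, 3 and 4. The groups overlapped, and the log2 fold change was -0.25 ± 0.54 (edgeR adjusted p = 0.830). Ifit1, at 0.609, 7.75, 1.14 and 0.969 CPM against 1.47, 0.903, 2.09 and 0.554 CPM, had 1 high library, replicate 2, and a log2 fold change of 1.04 ± 0.69 (edgeR adjusted p = 0.379). Bst2 stood at 13.2, 12.2, 11.7 and 12.2 CPM against 20.9, 17.5, 19.6 and 17.4 CPM. All its AngII libraries were below all controls, and its log2 fold change was -0.61 ± 0.23 (edgeR adjusted p = 0.0972, which did not pass). Of the 40 genes, 5 lay fully below in this way and 2 fully above, near the 10.6% and 12.4% of all tested genes. Apart from Mx1, the standard errors in this strain reached 1.03 on the log2 scale, for Oas3.

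The difference between the strains in the AngII effect was tested for each gene. It passed for 7 of the 40, all with the larger rise in C57BL/6J, against 9.96% of all tested genes called, 5.34% in that direction and 4.62% in the other, and 22 of the 40 had an unadjusted p below 0.05 in that direction and 0 in the other. The median difference was 1.19 on the log2 scale. Cell markers moved with it, since the same test passed for 10 of the 12 macrophage markers, all with the larger rise in C57BL/6J and with a list median of 1.57, and for all 8 smooth muscle markers in the other direction, with a median of -1.21. Of the 14 adipocyte markers 0 passed in edgeR, 10 had an unadjusted p below 0.05, and the median was 2.27. The 7 were 3 sensors (Zbp1, Dhx58 and Ddx58), Irf7, Oasl2, Bst2 and Rtp4. Zbp1 had the largest difference, 2.98 ± 0.81 (edgeR adjusted p = 0.0319), followed by Irf7 with 2.82 ± 0.77 (adjusted p = 0.0314). Dhx58, Oasl2 and Rtp4 differed by 2.10 ± 0.58, 1.83 ± 0.48 and 1.80 ± 0.54 (adjusted p = 0.0330, 0.0264 and 0.0463), and Ddx58 by 0.59 ± 0.16 (adjusted p = 0.0284). Bst2, which was higher with AngII in 1 strain and had its AngII libraries below its controls in the other, differed by 1.46 ± 0.32 (adjusted p = 0.0127).

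Of these 7 differences Bst2 alone held in all 16 omissions. The count went to 1 without C57BL/6J AngII replicate 1 or 5, C57BL/6J control replicate 2 or 129S6/SvEvTac AngII replicate 4. It went to 2 to 4 without C57BL/6J control replicate 1, 3 or 5, 129S6/SvEvTac AngII replicate 1 or 129S6/SvEvTac control replicate 2 or 3, and to 16 and 19 without C57BL/6J AngII replicates 2 and 3. With either the adipocyte or the macrophage score as covariate 0 differences passed in edgeR, and DESeq2 and limma voom gave 15 and 17.

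**Figure D4:**
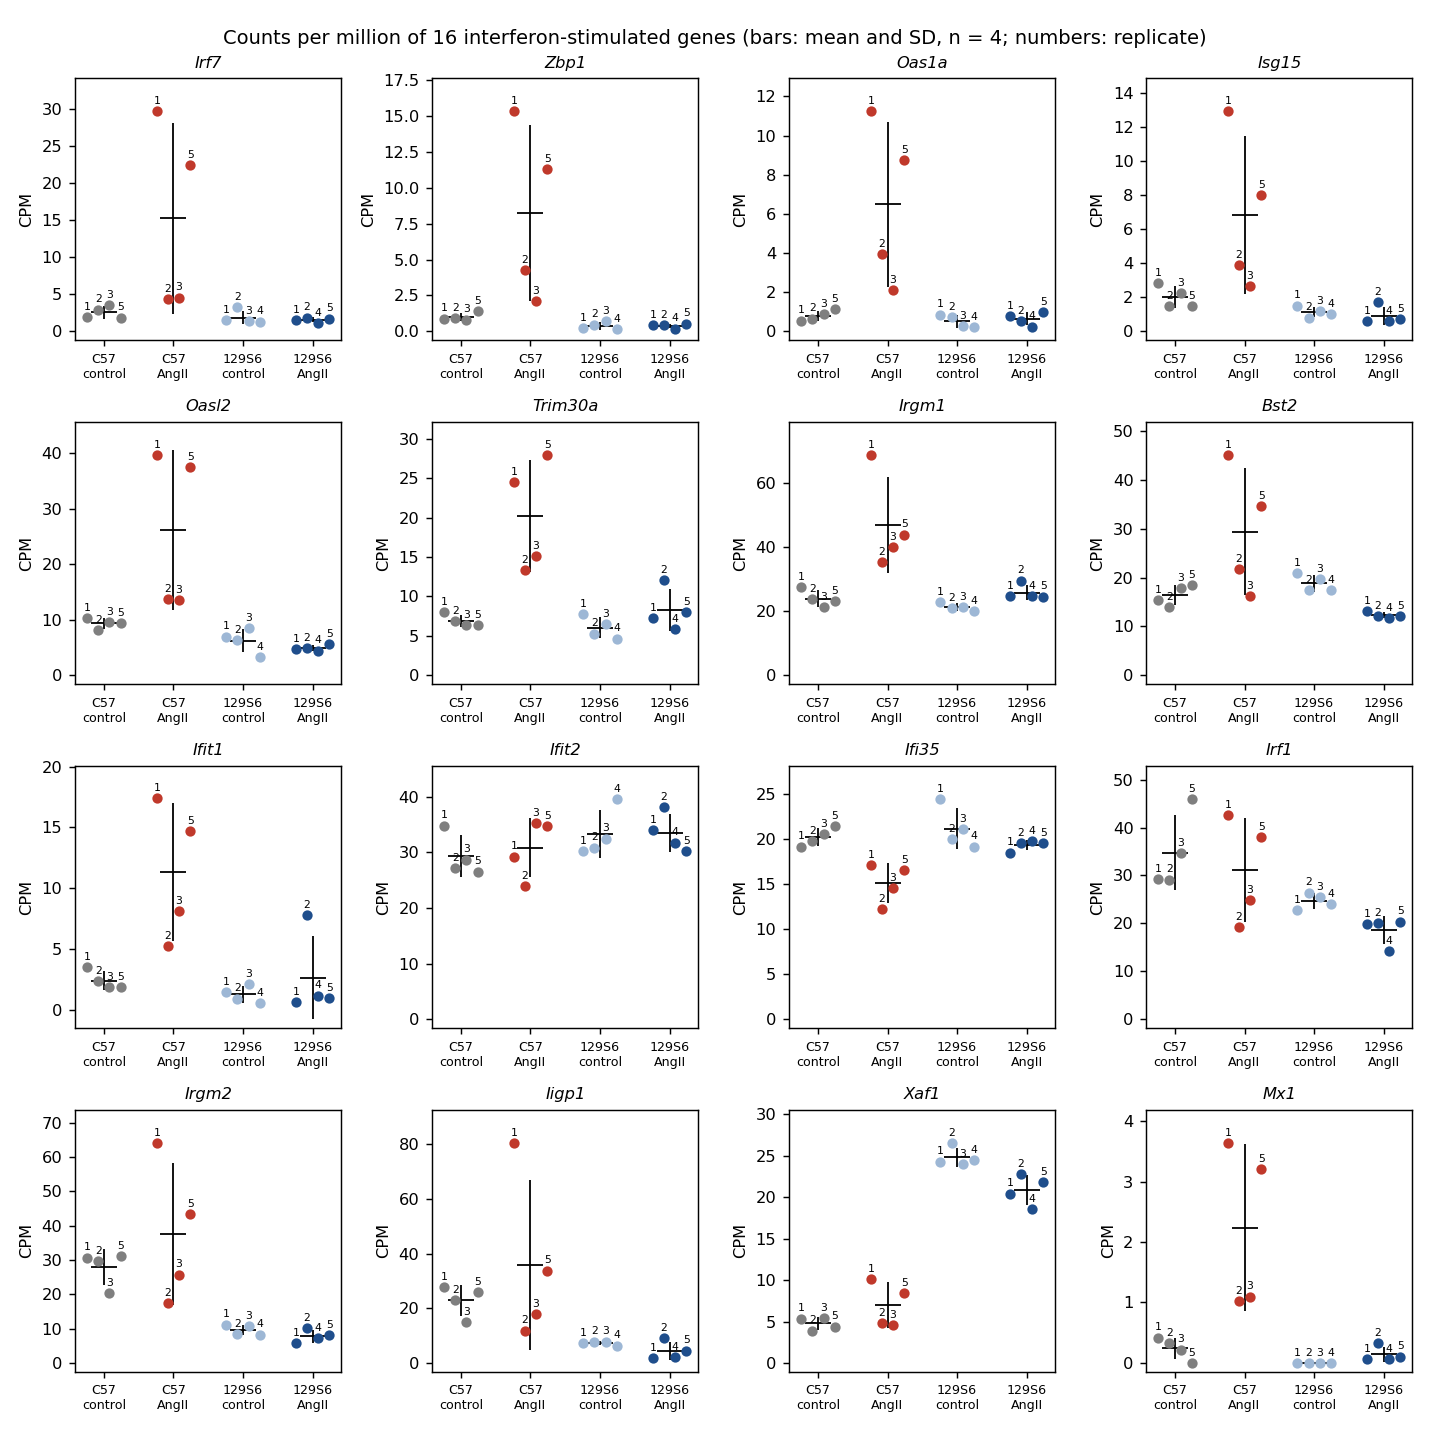
CPM of 16 of the genes in each library (points, numbered by replicate), with the mean and SD of each group of 4; C57 is C57BL/6J and 129S6 is 129S6/SvEvTac. Irf7, Zbp1, Oas1a and Oasl2 are high in C57BL/6J AngII replicates 1 and 5, Ifit2 overlaps in all 4 groups, and Xaf1 is 18.6 CPM or more in every 129S6/SvEvTac library and 10.2 CPM or less in every C57BL/6J library.

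Without AngII, the strains differed in 3 of the 40 genes, against 10.4% of all tested genes, 5.35% as higher in C57BL/6J and 5.06% as lower. Xaf1, which encodes an antagonist of the apoptosis inhibitor XIAP, was lower in C57BL/6J, at 5.34, 3.90, 5.45 and 4.38 CPM against 24.3, 26.6, 24.003 and 24.5 CPM in 129S6/SvEvTac. The groups lay far apart, with a log2 difference of -2.38 ± 0.22 (edgeR adjusted p = 2.17e-06). Irgm2 was higher in C57BL/6J, at 30.7, 29.6, 20.3 and 31.2 CPM against 11.2, 8.39, 10.7 and 8.23 CPM, with a log2 difference of 1.54 ± 0.32 (edgeR adjusted p = 0.00442). Mx1 had 51 counts over the C57BL/6J controls and 0 over those of 129S6/SvEvTac, which made it at least 15.7-fold higher in C57BL/6J (edgeR adjusted p = 0.0157). A fit of the control libraries alone left Mx1 untested, as it did not pass the filter there. All 3 calls held in every omission. The median log2 difference of the 40 was 0.39, against -0.001 over all tested genes, and 33 of the 40 were positive. At an unadjusted edgeR p below 0.05, 8 were higher in C57BL/6J and 1 was lower. In 12 of the 40 every C57BL/6J control lay above every 129S6/SvEvTac control, against 11.3% of tested genes. Among them was Iigp1, at 27.8, 22.99, 14.9 and 25.9 CPM against 7.28, 7.80, 7.76 and 6.36 CPM, whose log2 difference of 1.65 ± 0.55 did not pass (edgeR adjusted p = 0.0691). Reads of both strains were aligned to the same reference genome, which is that of C57BL/6J, and the effect of this on counts of 129S6/SvEvTac was not tested.

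With AngII, 32 of the 40 genes were higher in C57BL/6J than in 129S6/SvEvTac and 2 were lower, against 31.3% of all tested genes called and 16.8% called higher. The median log2 difference was 1.65, against 0.02 over all tested genes, and in 23 of the 40 every C57BL/6J library lay above every 129S6/SvEvTac library, against 14.7% of tested genes. This comparison shares the C57BL/6J AngII libraries with the first, so the counts are not separate evidence. All 4 sensors, all 5 OAS genes, both ISG15 genes, all 3 class I processing genes, 6 of 7 GTPases, 8 of 12 effectors, 3 of 4 factors and 1 of 3 IFIT genes were higher.

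Zbp1 was the clearest of the sensors, at 2.12 to 15.3 CPM against 0.198 to 0.541 CPM, a log2 difference of 4.34 ± 0.62 (edgeR adjusted p = 9.95e-05). Irgm2 and Iigp1, which had not passed for AngII within C57BL/6J, differed by 2.26 ± 0.32 and 3.07 ± 0.58 (edgeR adjusted p = 9.91e-05 and 0.000877). Igtp stood at 38.6, 6.21, 10.8 and 15.3 CPM in C57BL/6J and at 2.57, 4.87, 2.02 and 3.50 CPM in 129S6/SvEvTac, without overlap, and differed by 2.45 ± 0.46 (edgeR adjusted p = 0.000898). Irgm2, Iigp1 and Igtp already had higher mean levels in C57BL/6J among controls, where only Irgm2 passed. The strain difference in the AngII effect passed for 0 of the 7 GTPases. The 2 lower genes were Xaf1, at -1.58 ± 0.21 (adjusted p = 6.04e-05), and Ifi35, at -0.36 ± 0.10 (adjusted p = 0.0165, and up to 0.0617 when 1 library was left out). Stat2, Ifit2, Ifit3, Mx2, Ifi27 and Gbp2 did not pass, with log2 differences from -0.12 to 0.92. Of the 34 calls 28 held in every omission, and the exceptions were Irf1, Ifit1, Rsad2, Cmpk2, Ifi44 and Ifi35. With the macrophage score as covariate 0 were called higher in edgeR, against 32 without it at the same adjusted p. Without it, 33 were higher at an unadjusted edgeR p below 0.05. The calls over all genes fell from 5367 to 638 with the score.

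Calls and promoter letters can be set side by side for the 30 genes with a RefSeq promoter. Of the 15 genes with an ISRE core match, 12 were higher with AngII in C57BL/6J, with a median log2 fold change of 1.08, where 21.8% of all tested genes were called higher. The 3 others were Gbp7, Igtp and Irgm2, which hold a GAS match as well, as do Bst2 and Oas1a among the 12. Of the 15 without a core match 8 were higher, among them Irf7, Oasl1 and Oasl2, 1 was lower, Ifi35, and the median was 0.79. Of the 8 genes with a GAS match 3 were higher, Bst2, Oas1a and Psmb8, and of the 22 without one 17 were. Of the 12 genes with neither motif 7 were higher.

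No interferon gene passed the filter on counts. Of 20 interferon ligands, 15 had no count in any library, and the highest count in a library was 13. Ifnb1, which encodes interferon beta, had 11 counts in C57BL/6J AngII replicate 5 and 0 in the other libraries. Ifng, which encodes interferon gamma, had 13 counts in C57BL/6J AngII replicate 1 and 0 elsewhere. In the library with the smallest scaled total a count of 0 allows a level of up to 0.0757 CPM, from counting error alone.

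Of 9 interferon receptor and JAK kinase genes, 6 rose (66.7%) and 1 fell with AngII in C57BL/6J, against 21.8% higher and 17.1% lower of all tested genes. Jak1, a kinase of all interferon receptors, had the smallest p among those that rose, with a log2 fold change of 0.42 ± 0.07 (edgeR adjusted p = 0.000171), and Ifnlr1, a subunit of the lambda receptor, fell by 2.13-fold (log2 -1.09 ± 0.32, adjusted p = 0.0144). Ifnar1, a chain of the type I receptor, stood at 77.9, 72.7, 63.1 and 79.97 CPM against 45.4, 46.1, 53.3 and 34.6 CPM. Its groups did not overlap and its level was alike in the 4 AngII libraries, with a log2 fold change of 0.71 ± 0.13 (edgeR adjusted p = 0.000656). In 129S6/SvEvTac Ifngr2 and Tyk2 rose (22.2%, against 7.71% of all tested genes), and Ifnar1 changed by 0.06 ± 0.13 (edgeR adjusted p = 0.838). The strain difference in the AngII effect passed for 2 of the 9, Ifnar2 and Ifnar1, against 5.34% of all tested genes in that direction. It was 0.65 ± 0.19 for Ifnar1 (edgeR adjusted p = 0.0395). In control aorta 0 of the 9 differed between strains by edgeR, against 10.4% of all tested genes. The log2 difference for Ifnar1 was -0.32 ± 0.13, with an unadjusted edgeR p of 0.0274. With AngII 4 (44.4%) were higher in C57BL/6J, against 16.8% of all tested genes. Ifngr1 led them at 0.42 ± 0.09 (edgeR adjusted p = 0.00172), while Ifnar1, at 0.33 ± 0.13, did not pass (edgeR adjusted p = 0.0741).

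Upstream of interferon, 10 of 14 sensors, adaptors and interferon regulatory factors (71.4%) rose with AngII in C57BL/6J and 0 fell. The shares of all tested genes were 21.8% higher and 17.1% lower. Tmem173, which encodes the DNA-sensing adaptor STING, stood at 40.7, 37.5, 20.6 and 33.4 CPM against 7.17, 5.995, 9.06 and 7.32 CPM. All AngII libraries were above all controls, replicate 3 being the lowest of them, and the log2 fold change was 2.16 ± 0.21 (edgeR adjusted p = 3.82e-06). In 129S6/SvEvTac none of the 14 passed in edgeR, against 12.2% of all tested genes, and at an unadjusted p below 0.05 there were 0 higher and 0 lower. The strain difference passed for 3 (21.4%, against 5.34% of all tested genes), led by Tmem173 at 1.72 ± 0.29 (edgeR adjusted p = 0.00351). Between control strains 1 passed (7.14%, near the 5.35% of all tested genes called higher in C57BL/6J). It was Cgas, the cytosolic DNA sensor, at 1.54 ± 0.40 higher in C57BL/6J (edgeR adjusted p = 0.0211). With AngII 9 were higher in C57BL/6J (64.3%, against 16.8% of all tested genes), led by Tmem173 at 1.89 ± 0.21 (edgeR adjusted p = 1.05e-05).

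Among 10 negative regulators, 2 rose and 2 fell with AngII in C57BL/6J, shares of 20% each that lie near the 21.8% higher and 17.1% lower of all tested genes. Socs3, a feedback inhibitor of JAK kinases, stood at 77.3, 90.7, 84.6 and 64.1 CPM against 9.01, 11.9, 9.70 and 10.5 CPM, with a log2 fold change of 2.94 ± 0.23 (edgeR adjusted p = 7.33e-07). Its 4 AngII libraries were close together and far above the controls, unlike those of most of the 40. Pias1, an inhibitor of STAT signalling, fell in both strains, with log2 fold changes of -0.74 ± 0.10 in C57BL/6J and -0.50 ± 0.10 in 129S6/SvEvTac (edgeR adjusted p = 5.13e-05 and 0.00504). The strain difference passed for Socs3 at 2.50 ± 0.30, for Ptpn6 and, in the other direction, for Ptpn11 at -0.54 ± 0.14 (edgeR adjusted p = 0.000780 for Socs3 and 0.0271 for Ptpn11). Among all tested genes 5.34% and 4.62% were called in those directions. With AngII 2 of the 10 were higher and 2 lower in C57BL/6J than in 129S6/SvEvTac, against 16.8% and 14.6% of all tested genes.

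A further 56 interferon-induced genes outside the 40 were listed, of which 55 were tested. With AngII in C57BL/6J 26 rose (47.3%) and 2 fell, with a median log2 fold change of 1.10. Among all tested genes 21.8% were called higher and 17.1% lower. Slfn9, of the Schlafen family, led those that rose, at 30.3, 20.996, 11.3 and 21.98 CPM against 1.36, 1.70, 1.44 and 1.19 CPM and 3.89 ± 0.34 (edgeR adjusted p = 1.77e-06), and Oas1c led those that fell, at -0.76 ± 0.22 (adjusted p = 0.0128). In 129S6/SvEvTac 3 rose and 1 fell, led by Samhd1 at 0.89 ± 0.14 and Trim34a at -0.78 ± 0.20 (edgeR adjusted p = 0.000717 and 0.0173). The share that rose, 5.45%, lay below the 7.71% of all tested genes, of which 4.47% were called lower. The strain difference passed for 11 (20%), all larger in C57BL/6J, against 5.34% of all tested genes in that direction. Ifi207 led them at 1.74 ± 0.31 (edgeR adjusted p = 0.00409). In controls 7 were higher in C57BL/6J and with AngII 39 were, shares of 12.7% and 70.9%, against 5.35% and 16.8% of all tested genes. Trim34a led both, at 1.16 ± 0.19 and 2.25 ± 0.20 (edgeR adjusted p = 0.000830 and 1.19e-06). Of 8 class I molecules and processing partners 1 (12.5%) rose with AngII in C57BL/6J, a share below the 21.8% of all tested genes. It was B2m, the light chain of class I, at 658, 364, 404 and 669 CPM against 401, 361, 377 and 383 CPM and 0.46 ± 0.16 (edgeR adjusted p = 0.0307). With AngII 5 of the 8 (62.5%) were higher in C57BL/6J than in 129S6/SvEvTac, against 16.8% of all tested genes. B2m led them at 0.83 ± 0.16 (edgeR adjusted p = 0.00100).

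Levels were compared between genes per kilobase of exon. Ifi27 was the most abundant of the 40 in all 4 groups, at 59.4 CPM per kilobase in C57BL/6J controls, 83.7 with AngII, 56.3 in 129S6/SvEvTac controls and 69.4 with AngII. Bst2 and Gbp2 came next in every group, and among controls of both strains Ifi35 was the fourth. At the other end, Oas3 and Mx1 were the lowest in C57BL/6J controls, at 0.0607 and 0.0636 CPM per kilobase. Many of the genes with the largest log2 fold changes with AngII in C57BL/6J, such as Zbp1, Oas1a, Oas3 and Mx1, thus started from low levels, and their AngII levels per kilobase, 2.34, 3.45, 0.538 and 0.592, remained below that of Ifi27 in any group.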

How the data were processed

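The authors' deposited table gives expected counts per gene for 16 RNA-seq libraries, as whole numbers. Per the labels' protocols, total RNA from whole descending thoracic aorta was sequenced, HISAT2 aligned the reads to GRCm38/mm10, and StringTie estimated abundances on a Gencode annotation. The submitters' processing notes also name DESeq2 1.26.0 and R 3.6.2, with no role. The Gencode release and the use of strand are not named. Samples were grouped by the strain and treatment in the labels. IDs were named from GENCODE M21 (52489 of 52636 matched), and the 147 without a match, kept in the tests, held 0.0330% to 0.0431% of counts per library.

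Genes passing edgeR's filterByExpr (minimum count 10) were tested in edgeR 4.0.16 (R 4.3.3) with TMM factors, 1 mean per group and the robust quasi-likelihood F test, with Benjamini-Hochberg adjustment over all 17125 genes. Standard errors are the absolute log2 fold change divided by the square root of F, and scores are means of log2 CPM with a prior count of 2. The method was tested on simulated data. Of the alternatives tried, DESeq2 1.42.0 and limma 3.58.1 were other tests, and the rest changed the scaling, the filter, the libraries or the covariates. The number of counts limits precision, and floors of 3 counts cover counting error only. No 2 libraries of a group were alike within sampling noise.

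The 40 genes and all lists were chosen with earlier results of these data known. All 40 are named. From the other interferon lists, the called gene with the smallest p in each direction is named, plus Ifnb1, Ifng and Ifnar1. One further gene is not reported here. A few further genes (Adipoq, Adgre1, Myh11, Siglech, Ifnar2, Ptpn6 and Tyk2) were chosen after their values were seen.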

Additional observations from a re-analysis of the deposited data

Results flagged for a closer look

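Among 160 checks of a gene in a group of 4 libraries, 11 had a library whose gap to the nearest other exceeded Dixon's 95% critical value for 4 values, where chance gives about 1 in 20. In 6 the library was high and in 5 it was low. None of the 11 was in the AngII group of C57BL/6J. In that group replicates 1 and 5 both lay above replicates 2 and 3 in 39 of the 40 genes. The rule looks for 1 stray library and can miss such a split, so it does not show that the group was even.

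129S6/SvEvTac AngII replicate 2 was the high library in 4 genes. There Isg15 reached 1.72 CPM, and the other 3 libraries of the group lay between 0.609 and 0.698 CPM. Ifit1 reached 7.75 CPM, against 0.609 to 1.14 CPM. Mx1 stood at 0.328 CPM, against 0.0659 to 0.105 CPM, and Irgm1 at 29.6 CPM, against 24.6 to 24.7 CPM. The same library had the highest endothelial marker score of all 16, a mean log2 CPM of 7.12, and the part of this in the 4 values was not tested. In 129S6/SvEvTac AngII replicate 4, Irf1 was low at 14.3 CPM, against 19.8 to 20.4 CPM.

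In 129S6/SvEvTac controls, Irf7 was high in replicate 2 at 3.23 CPM, against 1.33 to 1.51 CPM, and Cmpk2 was high in replicate 1 at 6.01 CPM, against 5.21 to 5.32 CPM. Replicate 4 was low for Gbp3, at 6.79 CPM against 7.84 to 7.95 CPM, and for Psmb8, at 6.32 CPM against 10.97 to 11.15 CPM. In C57BL/6J controls replicate 3 was low for Gbp3, at 6.37 CPM against 10.9 to 11.3 CPM, and for Irgm2, at 20.3 CPM against 29.6 to 31.2 CPM.

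The AngII effect differed between the strains, by edgeR's test of the difference itself, in 7 genes, with the larger effect in C57BL/6J in each. The differences on the log2 scale were 2.82 for Irf7, 0.59 for Ddx58, 2.10 for Dhx58, 2.98 for Zbp1, 1.83 for Oasl2, 1.46 for Bst2 and 1.80 for Rtp4.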

How the results depend on the processing

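Over the 40 genes, the 5 comparisons and all alternatives, 4890 values kept their side of the threshold. Of the rest, 306 lost a call, 114 gained one and 31 turned. Direction was read only where the main fit or the alternative called the gene, so turns of genes called in neither count among the 4890. With RLE factors and with DESeq2, all 73 calls held. For AngII in C57BL/6J, the 27 genes called higher became 16 with only the groups compared, 2 with the adipocyte score, 0 with the macrophage score and 14 with 2 libraries left out together, and ranged from 15 to 31 over single omissions. The 6664 calls over all genes became 1374 with the macrophage score and ranged from 5740 to 7173 over omissions.

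For AngII in 129S6/SvEvTac, the 1 gene called higher became 0 with the filter of 1 CPM in 4 libraries and with only the groups compared. Both of these settings left Mx1 untested. The count also became 0 with limma voom and with 2 libraries left out together. The 0 called lower became 1 with library size only, limma voom or either score, and 2 with only the groups compared. All-gene calls went from 2087 to 3325 with limma voom and ranged from 1402 to 2633 over omissions, and the higher and lower counts of the 40 ranged from 0 to 1.

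For the difference of AngII effects, the 7 genes became 12 with library size only, 15 with DESeq2, 17 with limma voom, 0 with either score and 1 with 2 libraries left out together, and ranged from 1 to 19 over omissions. All-gene calls went from 1706 to 2642 with DESeq2, 2670 with limma voom, 1081 with the adipocyte score, 65 with the macrophage score and 1049 with 2 libraries left out together, and ranged from 1039 to 2990 over omissions, with 2990 without C57BL/6J AngII replicate 3, 1076 without 129S6/SvEvTac AngII replicate 4 and 1039 without 129S6/SvEvTac control replicate 2.

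Between control strains, the 2 genes called higher in C57BL/6J became 1 with the 1 CPM filter, 6 with DESeq2, 4 with limma voom, 9 with only the groups compared, 7 with the adipocyte score and 4 with 2 libraries left out together, and ranged from 2 to 4 over omissions, with 4 without C57BL/6J AngII replicate 1 or 2 or 129S6/SvEvTac AngII replicate 2. Mx1 was not tested with the 1 CPM filter or with only the groups compared. The 1 lower gene became 2 with only the groups compared. All-gene calls went from 1783 to 3209 with limma voom and 2772 with only the groups compared, and ranged from 1354 to 2118. Between strains with AngII, the 32 higher became 0 with the macrophage score and ranged from 27 to 34 over omissions. The 2 lower became 1 with library size only, limma voom, only the groups compared or the macrophage score, and ranged from 1 to 2, being 1 without C57BL/6J AngII replicate 2 or 129S6/SvEvTac AngII replicate 4. All-gene calls fell from 5367 to 638 with the macrophage score and ranged from 4478 to 6088 over omissions.

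The replicate numbers were not shown to pair libraries. Deviations of same-numbered AngII and control libraries correlated at 0.15, 0.04, -0.06 and -0.03 in C57BL/6J and at 0.11, -0.06 and 0.06 in 129S6/SvEvTac. The same-numbered control gave the highest correlation for C57BL/6J AngII replicate 1 and 129S6/SvEvTac AngII replicates 1 and 4. It did not for C57BL/6J AngII replicates 2, 3 and 5 or 129S6/SvEvTac AngII replicate 2. Across strains the same number was best only for AngII replicate 5, at 0.15. With the replicate block, the genes called numbered 17 higher for AngII in C57BL/6J, 0 for AngII in 129S6/SvEvTac and 0 for the difference, and all-gene calls numbered 352 in 129S6/SvEvTac and 290 for the difference. With the replicate block across strains, added after seeing the data, 1 gene was higher between controls.

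With the macrophage score as covariate, log2 values turned for AngII in C57BL/6J in Irf9 (-0.46), Irf7 (-0.54), Dhx58 (-0.062), Zbp1 (-0.64), Oas1a (-1.10), Oas2 (-0.86), Oas3 (-3.22), Oasl1 (-0.42), Oasl2 (-0.84), Rsad2 (-0.40), Bst2 (-0.41), Rtp4 (-0.085), Gbp2 (-0.065), Gbp3 (-0.026), Psmb8 (-1.33) and Tap1 (-0.35). For the difference they turned in Zbp1 (-0.14) and Oasl2 (-0.20). Between strains with AngII they turned in Irf9 (-0.17), Irf7 (-0.22), Irf1 (-0.28), Oas1a (-1.12), Oas2 (-0.11), Oas3 (-1.96), Oasl1 (-0.16), Oasl2 (-0.19), Rsad2 (-0.87), Bst2 (-0.15), Psmb8 (-0.92) and Tap1 (-0.30). With the adipocyte score Psmb8 turned for AngII in C57BL/6J (-0.020). None of these turned values passed in edgeR, and turns of genes called in neither fit are not listed. The macrophage score was higher in each C57BL/6J AngII library than in all others, and the adipocyte score was not; the cause of these changes was not tested.

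Scaling by library size alone moved the median of all genes for AngII in 129S6/SvEvTac to -0.16. The higher share of all calls then went from 56.1% to 45.4% in C57BL/6J, from 63.3% to 25.2% in 129S6/SvEvTac and from 53.6% to 65.2% for the difference.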
